A study of Mus musculus with 16 samples.

Results

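The nuclear genes of the mitochondrial respiratory chain were followed in mouse hamstring muscle across 4 groups of animals. Members were all probes whose symbol in the deposited table of non-normalized intensities began with Nduf, Uqcr, Atp5 or Cox4 to Cox8, or was Sdha, Sdhb, Sdhc, Sdhd, Cycs or Cyc1. This rule, which uses names and no measured value, took 98 of 25697 probes on the Illumina BeadChip, for 79 genes. Of these, 91 probes for 75 genes passed the detection filter (detection p under 0.05 on at least 3 arrays) and were tested, 42 of them for complex I, 5 for complex II, 6 for complex III, 2 for cytochrome c, 15 for complex IV and 15 for complex V. The last 6 probes belong to genes that the name pattern takes but that are not subunits: the assembly factor gene Ndufaf1, and Cox4nb, Atp5s, Atp5sl and Cox7a2l. On all 16 arrays 86 member probes were detected, and 5 were kept with fewer detections. The 7 probes left out were those of Ndufs1, Uqcrq, Cox7b2 and Cox8c and 1 each of the several probes of Sdhc, Cox6b2 and Atp5j. Sdha, Cox7c, Cox8a and the subunits encoded in mitochondrial DNA were not analysed here.

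All mice were female, and hamstring muscle was taken 2 days after surgery. SCI+CDTX mice had a spinal cord injury (SCI) between thoracic vertebrae 12 and 13 and cardiotoxin (CDTX), a toxin of snake venom that breaks down muscle fibres, injected into the muscle. SCI+Saline mice had the same injury with saline, Sham+CDTX mice had sham surgery with CDTX, and Sham+Saline mice had sham surgery with saline. The series design names SCI+CDTX as the one condition in which neurogenic heterotopic ossification, bone in muscle after a nervous system lesion, forms. Each group had 4 arrays, and SCI+CDTX 2 is left out of the comparisons because the submitters left it out of their final analysis. Strain and age are not given in the sources used here, and nothing states that each array is a separate animal, so p-values measure the spread between arrays.

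The respiratory chain sits in the inner mitochondrial membrane. Complex I (NADH dehydrogenase) and complex II (succinate dehydrogenase, which is also an enzyme of the tricarboxylic acid cycle) pass electrons to ubiquinone, complex III passes them to cytochrome c, and complex IV (cytochrome c oxidase) passes them to oxygen. Complexes I, III and IV pump protons, and complex V (ATP synthase) uses the proton gradient to make ATP. Skeletal muscle has its own isoforms of several complex IV subunits, among them Cox6a2, Cox7a1 and Cox8b, in place of the more widely expressed Cox6a1, Cox7a2 and Cox8a.

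Some facts of the arrays touch the values below. All SCI arrays lay on 1 slide and all sham arrays on the other (8 arrays each). SCI effects and slide effects therefore cannot be told apart, whereas each CDTX effect was measured within a slide. On each slide the CDTX arrays carry the letters A to D and the saline arrays E to H. Effects of CDTX and of the order on the slide therefore cannot be told apart either. Mean raw intensity was 320 to 373 on SCI+CDTX, 321 to 335 on SCI+Saline, 325 to 339 on Sham+CDTX and 230 to 277 on Sham+Saline arrays, so Sham+Saline arrays were dimmer than the rest. A probe difference score, the first component of the differences between the 2 brightest probes of 2769 genes that are no members, was 18.2 to 20.6 on the Sham+CDTX arrays, 14.6 on SCI+CDTX 2 and -14.1 to -3.5 on the other 11 arrays. That score measures a disagreement between probes of the same gene, and fits that include it use all 16 arrays and rest on SCI+CDTX 2 to separate the score from the group. Fast and general muscle fibre genes, taken to check the tissue label, had summed normalized intensities of 174499 to 213958 on all arrays used. Quantile normalization gives all arrays the same top intensities, and many of these genes lie there (Mylpf had group means of 14.11 to 14.20 log2). The sum therefore shows that these genes were bright on every array, and its evenness is partly set by the normalization.

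Upstream sequences are shown for 3 complex IV genes that the results turn on: Cox6a1, which rose after CDTX, and the muscle isoform genes Cox7a1 and Cox8b, which fell. They are the 250 bases before the annotated start, from RefSeq, build GRCm38.p6, each 5′ to 3′ on the strand of the gene. Capitals mark matches, on either strand, to the letters of the ERRA half-site AAGGTCA, the ETS core CCGGAAG, the NRF1 half-site TGCGCA, the NRF1 palindrome or the E-box CAGCTG.
Cox6a1, chr5:115348959-115349208, minus strand: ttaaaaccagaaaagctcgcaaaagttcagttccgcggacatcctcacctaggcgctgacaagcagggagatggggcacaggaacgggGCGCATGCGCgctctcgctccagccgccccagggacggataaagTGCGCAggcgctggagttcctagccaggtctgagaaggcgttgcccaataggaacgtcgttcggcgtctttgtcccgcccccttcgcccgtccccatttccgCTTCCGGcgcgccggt
Cox7a1, chr7:30183921-30184170, plus strand: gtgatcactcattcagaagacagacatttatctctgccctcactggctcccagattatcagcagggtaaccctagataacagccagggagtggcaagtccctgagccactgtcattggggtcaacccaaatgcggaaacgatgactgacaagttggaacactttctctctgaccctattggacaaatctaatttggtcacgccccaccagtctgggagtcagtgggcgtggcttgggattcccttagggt
Cox8b, chr7:140900447-140900696, minus strand: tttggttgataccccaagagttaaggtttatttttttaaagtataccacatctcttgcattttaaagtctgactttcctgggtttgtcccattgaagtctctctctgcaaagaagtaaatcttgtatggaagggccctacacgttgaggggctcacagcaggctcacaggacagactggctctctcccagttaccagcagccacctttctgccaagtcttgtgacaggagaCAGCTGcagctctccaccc
In the Cox6a1 stretch the NRF1 palindrome began 162 bases, the NRF1 half-site 118 bases and the ETS core 16 bases before the start. In the Cox8b stretch an E-box began 19 bases before the start, and the Cox7a1 stretch held 0 matches.

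Of the 79 member genes, 64 had such a stretch in the table, 70 stretches in all. The ETS core was found in 13 of the 70 (18.6%), against 6.91% of all 32851 stretches of the same length. The NRF1 half-site was also found in 13 (18.6%, against 6.43%), and the NRF1 palindrome in 3 (4.29%, against 0.782%), those of Atp5g2, Atp5k and Cox6a1. The ERRA half-site was found in 4 (5.71%, against 4.08%) and the E-box in 5 (7.14%, against 13%). A match is a description of the letters and was not tested as a binding site.

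Within SCI mice, most respiratory chain genes were lower in CDTX-injected than in saline-injected muscle. Of 91 member probes, 72 were lower and 2 higher in SCI+CDTX than in SCI+Saline (limma, Benjamini-Hochberg adjusted p under 0.05 over 14763 probes), where 22.5% of all tested probes were lower and 20.4% higher. The median log2 fold change was -0.79 over the members and -0.05 over all probes, and 22 member probes were lower by at least 1 log2. In these whole-muscle samples, fewer cells of a type and less RNA per cell cannot be told apart. Counted by gene, with the brightest probe for each, 60 of 75 genes were lower and 1 was higher.

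The fall reached every complex, and complexes I and II had lower medians than complexes III, IV and V. Complex I had 38 of 42 probes lower (median -0.87), complex II 5 of 5 (median -0.88), complex III 4 of 6 (median -0.61), cytochrome c 2 of 2 (median -1.03), complex IV 10 of 15 with 2 higher (median -0.61), and complex V 10 of 15 (median -0.56). Of the 20 catalytic or structural core genes fixed as a list and kept, 15 were lower and 0 higher.

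Most members were also lower after CDTX within sham mice. In Sham+CDTX against Sham+Saline, 55 member probes were lower and 7 higher, where 25.8% of all probes were lower and 23.1% higher. The member median was -0.47, against -0.04 over all probes. When the fit held the probe difference score, the order of the surgeries turned, with member medians of -1.06 in sham mice and -0.83 in SCI mice. In that fit 0 members were called for the difference between the surgeries (limma), against 17 below 0 and 3 above without the score. Complex I had 28 of 42 probes lower and 1 higher, complex II 2 of 5 lower, complex III 5 of 6, cytochrome c 1 of 2, complex IV 7 of 15 with 4 higher, and complex V 8 of 15. After median scaling over all probes in place of quantile normalization, the all-probe median rose to 0.32 and the member median was -0.25, with 32 probes lower and 14 higher. The share of higher among all calls was 85.1% under that scaling and 47.3% in the fit reported here, so the direction of each fall is stated relative to the middle of the probes. In SCI mice this scaling moved the all-probe median to 0.06 and that share from 47.6% to 64.9%, with 75 member probes lower and 3 higher. Median scaling over the kept probes alone, chosen after seeing the data, gave member medians of -1.29 and -1.03 in SCI and sham mice, all-probe medians of -0.33 and -0.45, and higher shares of 27.3% and 24.6%.

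The array medians placed SCI+CDTX below the other groups. Relative to the Sham+Saline mean, the median over the 91 member probes was -0.81, -1.05 and -0.92 on SCI+CDTX 1, 3 and 4. It was 0.02, -0.05, -0.31 and -0.31 on the SCI+Saline arrays, -0.40, -0.44, -0.62 and -0.36 on the Sham+CDTX arrays, and -0.06, 0.10, -0.04 and -0.02 on the Sham+Saline arrays. The SCI+CDTX arrays did not overlap any other group, and the Sham+CDTX arrays lay below both saline groups. SCI+CDTX 2, normalized with all 16 arrays, was at -0.53, within the range of the Sham+CDTX arrays. With it included, 67 member probes were lower and 2 higher after CDTX in SCI mice, and the median was -0.63.

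**Figure D1:**
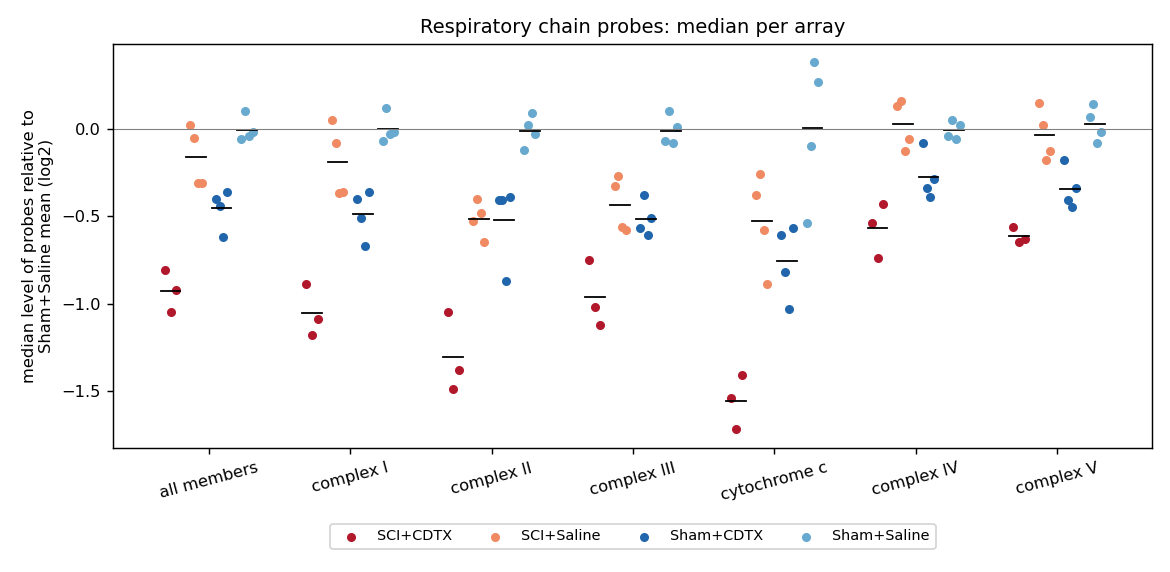
Median level of the member probes on each array (log2, relative to the Sham+Saline mean), over all 91 probes and for each complex; points are the 15 arrays used, colours the 4 groups, and black lines the group means. The SCI+CDTX arrays lie lowest in every set, at -1.05 to -0.81 over all members.

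The 42 complex I probes ranged from -1.53 to -0.16 after CDTX in SCI mice and from -1.61 to 0.64 in sham mice. Ndufb5, an accessory subunit in the membrane arm (ILMN_2617335, chromosome 3), was at 9.63, 9.35 and 9.82 log2 normalized intensity in SCI+CDTX and at 11.41, 11.12, 10.78 and 10.82 in SCI+Saline. It was at 10.97, 10.73, 10.24 and 11.03 in Sham+CDTX and at 10.33, 10.83, 10.79 and 10.80 in Sham+Saline. The SCI+CDTX arrays were below all others, and the other groups overlapped. The log2 fold change after CDTX was -1.43 (SE 0.21, adjusted p 2.68e-05) in SCI mice and 0.06 (SE 0.19, adjusted p 0.834) in sham mice, where it became -1.78 (adjusted p 0.0198) with the score.

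Ndufb10, another membrane arm subunit (ILMN_2900216, chromosome 17), fell after CDTX in both surgeries. It was at 8.57, 8.76 and 8.87 in SCI+CDTX, at 9.86, 9.71, 9.63 and 9.12 in SCI+Saline, at 8.62, 8.01, 8.30 and 8.60 in Sham+CDTX and at 9.91, 10.19, 10.06 and 9.82 in Sham+Saline. CDTX and saline arrays did not overlap in either surgery. The change was -0.85 (SE 0.19, adjusted p 0.00118) in SCI mice and -1.61 (SE 0.17, adjusted p 4.69e-07) in sham mice.

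Ndufv1, the flavoprotein that takes the electrons from NADH (ILMN_2702704, chromosome 19), also fell in both surgeries. It was at 12.10, 11.74 and 11.93 in SCI+CDTX, at 12.18, 12.23, 12.69 and 12.29 in SCI+Saline, at 11.16, 11.42, 11.21 and 11.36 in Sham+CDTX and at 12.79, 12.88, 12.80 and 12.93 in Sham+Saline. No pair of compared groups overlapped. CDTX changed it by -0.42 (SE 0.15, adjusted p 0.0276) in SCI mice and by -1.56 (SE 0.14, adjusted p 6.16e-08) in sham mice, the smallest called fall of a complex I gene in SCI mice. These calls were lost with the score, which gave -0.29 (adjusted p 0.141) and -0.55 (adjusted p 0.246), with a difference between the surgeries of 0.26 (adjusted p 0.774).

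Further core subunits of complex I, of the arm that carries the iron-sulphur clusters, fell after CDTX in SCI mice: Ndufs3 was at -0.84, Ndufs7 at -0.83, Ndufs8 at -0.79 and Ndufv2 at -0.69 on the log2 scale. In sham mice these 4 fell as well, at -0.51, -0.55, -0.94 and -0.74 (limma, adjusted p at most 0.0071). With the score Ndufs8 was at -0.93 in sham mice and no longer called (adjusted p 0.113), and the other 3 were at -1.15 to -1.05. Ndufs1, the largest subunit, was detected on 0 of 16 arrays by its probe.

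**Figure D2:**
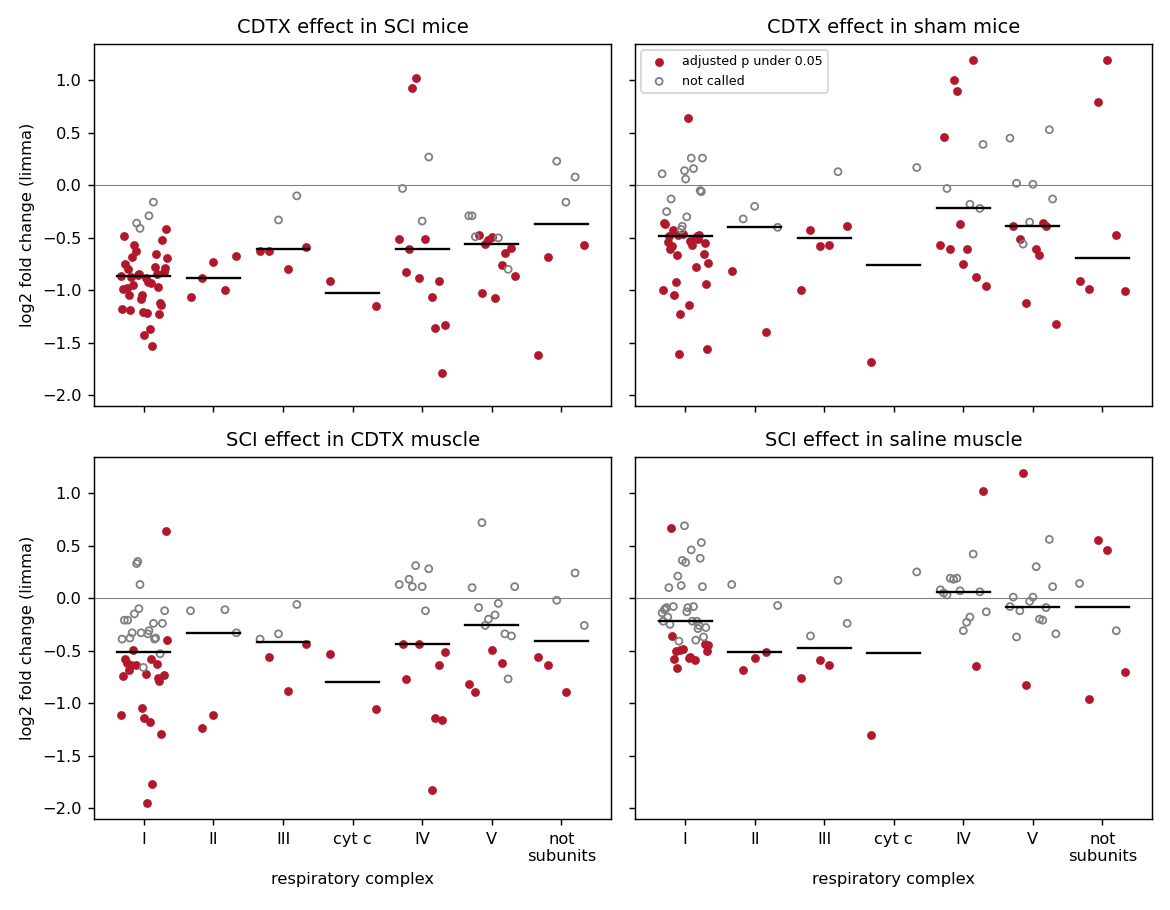
Log2 fold change (limma, 15 arrays) of each of the 91 member probes by complex in 4 comparisons; filled points have an adjusted p under 0.05, open points do not, and black lines are medians. After CDTX in SCI mice 72 probes are called lower, and the 2 called higher are both Cox6a1 probes in complex IV.

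In complex II, Sdhc, a membrane anchor subunit (ILMN_2594149, chromosome 1), fell in both surgeries. It was at 10.55, 10.42 and 10.58 in SCI+CDTX, at 11.50, 11.76, 11.55 and 11.25 in SCI+Saline, at 10.51, 10.60, 10.63 and 10.76 in Sham+CDTX and at 12.25, 12.04, 12.04 and 11.77 in Sham+Saline. The CDTX groups overlapped each other and neither overlapped a saline group. The change was -1.0 (SE 0.15, adjusted p 4.05e-05) in SCI mice and -1.40 (SE 0.14, adjusted p 2.09e-07) in sham mice.

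The iron-sulphur subunit gene Sdhb (chromosome 4) gave unlike values on its probes. The brightest (ILMN_2769065) was at 10.40, 9.95 and 10.07 in SCI+CDTX, at 10.87, 10.96, 10.87 and 10.79 in SCI+Saline, at 11.11, 11.31, 11.04 and 11.55 in Sham+CDTX and at 11.15, 11.47, 11.76 and 11.41 in Sham+Saline. The sham groups overlapped, and both SCI groups lay below both sham groups. CDTX changed it by -0.73 (SE 0.17, adjusted p 0.00161) in SCI mice and by -0.20 (SE 0.15, adjusted p 0.314) in sham mice, and SCI changed it in saline muscle by -0.57 (SE 0.15, adjusted p 0.00902). With the score its sham value was -1.37 (adjusted p 0.0194). A dimmer probe (ILMN_2592389), which shares under 8 bases in a row with it, fell after CDTX in both surgeries, at -1.06 in SCI mice and -0.82 (adjusted p 9.53e-05) in sham mice, and was at 0.13 (adjusted p 0.556) for SCI in saline muscle. Sdhd, the other anchor subunit, was at -0.67 (adjusted p 0.00893) in SCI mice and -0.40 (adjusted p 0.0726) in sham mice.

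In complex III, Cyc1, the cytochrome c1 subunit (chromosome 15), was at 10.43, 10.02 and 10.26 in SCI+CDTX, at 10.80, 11.18, 10.92 and 10.56 in SCI+Saline, at 10.52, 10.64, 10.62 and 10.70 in Sham+CDTX and at 11.95, 11.81, 11.39 and 11.34 in Sham+Saline. The Sham+Saline arrays were above all others. CDTX changed it by -0.63 (adjusted p 0.00754) in SCI mice and -1.0 (adjusted p 5.62e-05) in sham mice. The core protein gene Uqcrc2 fell, at -0.80 and -0.57, and Uqcrc1, the other core protein gene, was at -0.33 (adjusted p 0.163) in SCI mice and -0.58 (adjusted p 0.00916) in sham mice. Uqcrfs1, the Rieske iron-sulphur protein gene, was detected on 4 of 16 arrays and was not called in any of the 5 comparisons (limma). With the score the sham values of Cyc1 and Uqcrc1 were -0.88 (adjusted p 0.139) and -0.30 (adjusted p 0.684), no longer called, and that of Uqcrc2 was -1.56.

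Cytochrome c, the carrier between complexes III and IV, had 2 probes that disagreed in sham mice in the fit without the score. The first (ILMN_3155380, chromosome 6) was at 6.56, 6.10 and 6.95 in SCI+CDTX, at 8.23, 7.82, 7.61 and 7.08 in SCI+Saline, at 7.89, 7.60, 6.99 and 7.93 in Sham+CDTX and at 6.49, 7.29, 8.07 and 7.90 in Sham+Saline. The second (ILMN_3076459) was at 4.91, 5.00 and 4.78 in SCI+CDTX, at 5.56, 6.22, 5.77 and 5.69 in SCI+Saline, at 5.43, 5.31, 5.50 and 5.47 in Sham+CDTX and at 6.97, 7.05, 7.24 and 7.18 in Sham+Saline. Both fell after CDTX in SCI mice, at -1.15 (adjusted p 0.00957) and -0.91 (adjusted p 0.00012). In sham mice the first was at 0.17 (adjusted p 0.681) and the second fell by 1.68 (adjusted p 4e-08). With the score the sham values lay close together, at -2.2 (adjusted p 0.0519) and -2.27 (adjusted p 0.000985), and only the second was called.

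In complex IV, Cox6a1, the widely expressed isoform of subunit 6a, was higher after CDTX in both surgeries. Its brighter probe (ILMN_2638875, chromosome 5) was at 11.16, 11.91 and 11.38 in SCI+CDTX, at 10.21, 10.47, 10.50 and 10.67 in SCI+Saline, at 11.35, 10.99, 11.25 and 11.09 in Sham+CDTX and at 10.21, 10.75, 9.64 and 10.47 in Sham+Saline. CDTX and saline arrays did not overlap in either surgery. The rise was 1.02 (SE 0.22, adjusted p 0.00113) in SCI mice and 0.90 (SE 0.21, adjusted p 0.00134) in sham mice, the latter 2.24 with the score. The second Cox6a1 probe, which shares 31 of its 50 bases with the first and is therefore no independent measurement, rose by 0.93 and 1.00. SCI+CDTX 2 was at 10.59 on the first probe (normalized with all 16 arrays), within the SCI+Saline range.

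The muscle isoforms fell. Cox6a2 (chromosome 7) was at 13.42, 12.90 and 13.12 in SCI+CDTX, at 14.09, 14.12, 14 and 13.92 in SCI+Saline, at 13.69, 13.52, 13.57 and 13.59 in Sham+CDTX and at 13.89, 13.86, 14.05 and 14.03 in Sham+Saline. It changed by -0.88 (SE 0.14, adjusted p 7.18e-05) in SCI mice and by -0.37 (SE 0.13, adjusted p 0.0253) in sham mice, with no overlap between CDTX and saline arrays. Cox8b (chromosome 7) was at 12.31, 11.57 and 12.01 in SCI+CDTX, at 13.62, 13.50, 12.95 and 13.10 in SCI+Saline, at 12.62, 12.31, 12.33 and 12.61 in Sham+CDTX and at 13.39, 13.57, 13.35 and 13.39 in Sham+Saline. It changed by -1.33 (SE 0.19, adjusted p 2.24e-05) and -0.96 (SE 0.17, adjusted p 0.00016), again without overlap. With the score the sham values were -1.01 (adjusted p 0.0325) for Cox6a2 and -1.18 (adjusted p 0.0587) for Cox8b, the latter no longer called.

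Cox7a1 (chromosome 7) was at 11.22, 10.41 and 10.55 in SCI+CDTX, at 12.70, 12.52, 11.54 and 11.60 in SCI+Saline, at 12.05, 11.67, 11.77 and 11.97 in Sham+CDTX and at 12.77, 12.77, 12.74 and 12.67 in Sham+Saline. It was lowest in SCI+CDTX and highest in Sham+Saline, and SCI+Saline spread over the Sham+CDTX range. The change after CDTX was -1.36 (SE 0.25, adjusted p 0.000264) in SCI mice and -0.87 (SE 0.23, adjusted p 0.00423) in sham mice, the latter -1.93 with the score. Cox7a2, its widely expressed counterpart, did not rise: it fell by 0.91 (adjusted p 0.00123) in SCI mice and was at -0.22 (adjusted p 0.358) in sham mice. With the score its sham value was -1.09 (adjusted p 0.0818).

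The isoform pairs were also compared within each array, as the log2 difference between the muscle and the other isoform. A shift common to all probes of an array cancels in this difference. A shift that differs between probes, which the probe difference score measures, does not cancel. Pair differences with the score are not given here. For Cox6a2 minus Cox6a1 the difference averaged 3.69 ± 0.54 on Sham+Saline arrays and 2.42 ± 0.11 on Sham+CDTX arrays (SD, n = 4). It averaged 3.57 ± 0.26 (SD, n = 4) on SCI+Saline and 1.67 ± 0.64 (SD, n = 3) on SCI+CDTX arrays. The change after CDTX was -1.90 in SCI mice against -1.27 in sham mice. The SCI effect in CDTX muscle was -0.76. Each had a two-sided exact permutation p of 0.0286, the smallest that these group sizes allow, and an adjusted p of 0.0457 over 8 tests. The SCI effect in saline muscle was -0.12 (exact permutation p 0.743, adjusted 0.743). The -0.76 became -0.42 without SCI+CDTX 3 and -0.41 (exact permutation test, adjusted p 0.392) with SCI+CDTX 2 included. With SCI+CDTX 2 included, the CDTX changes were -1.55 and -1.26, with an adjusted p of 0.0571 each in the exact permutation test over the 8 tests. Under median scaling over all probes the 3 changes were -1.93, -1.75 and -0.88, with the same adjusted p of 0.0571 (exact permutation test). For SCI in CDTX muscle the separate values of Cox6a2 and Cox6a1 were -0.44 and 0.31 without the score. With the score they were 0.08 and -0.77, the opposite order, and neither was called. For CDTX in sham mice they were -0.37 and 0.9 without the score, and -1.01 and 2.24 with it, the same order.

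For Cox7a1 minus Cox7a2 the change was -0.66 after CDTX in sham mice and -0.71 after SCI in saline muscle (exact permutation p 0.0286, adjusted 0.0457 each). It was -0.45 after CDTX in SCI mice (exact permutation p 0.171, adjusted 0.196) and -0.50 after SCI in CDTX muscle (exact permutation p 0.114, adjusted 0.152), with overlapping arrays in both. Under median scaling over all probes the first pair of values was -1.24 (adjusted p 0.0571) and -0.78 (adjusted p 0.0914, exact permutation test), and with SCI+CDTX 2 included it was -0.65 and -0.70 (adjusted p 0.0571 each, exact permutation test). Leaving out any 1 of 14 of the arrays ended the 5 calls on these pairs (exact permutation test, adjusted p 0.0571 to 0.16), and leaving out Sham+Saline 4 did not. The 5 calls were all at the smallest p that their group sizes allow. Without an SCI+CDTX, SCI+Saline or Sham+CDTX array that smallest p rises for some of them. For those arrays the loss follows from the group sizes and does not show that the calls rest on a single array. Without Sham+Saline 1, 2 or 3 the smallest p stays at 0.0286 (exact permutation test) and does not account for the loss. The reason for the loss without these arrays was not tested.

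**Figure D3:**
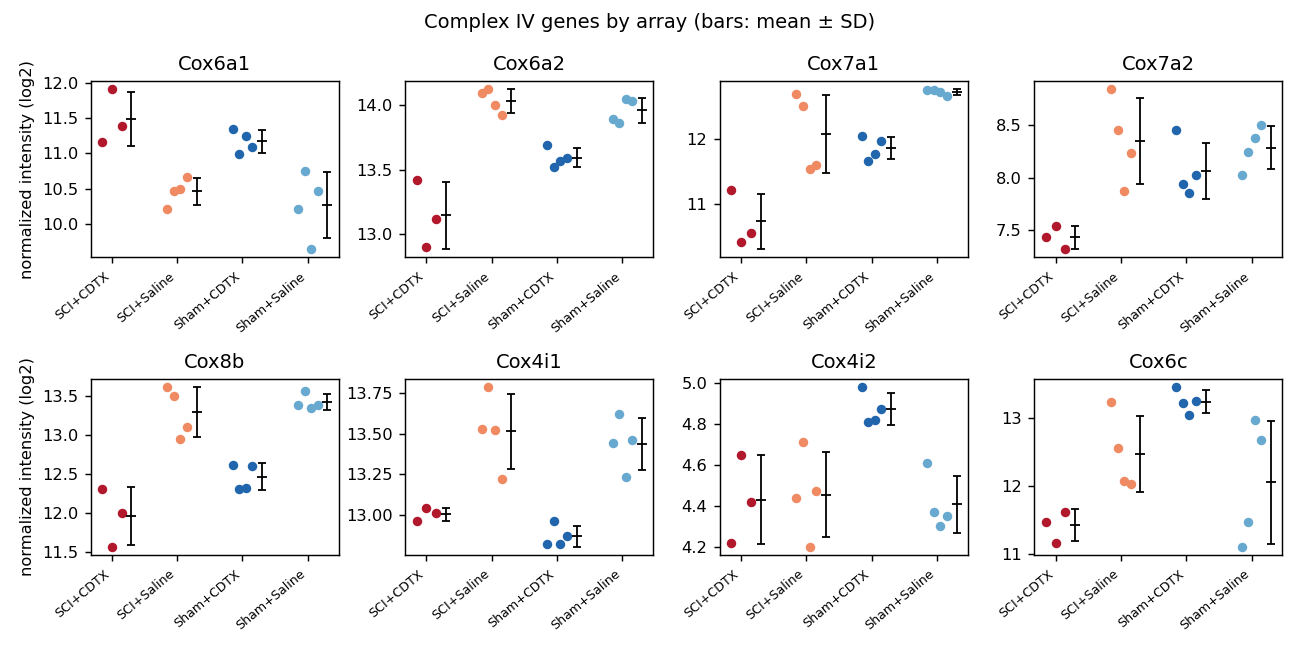
Log2 normalized intensity of 8 complex IV genes (brightest probe each) on the 15 arrays, with group mean ± SD beside the points; the vertical axes differ between panels and do not start at 0. Cox6a1 is higher in both CDTX groups, and Cox6a2, Cox7a1, Cox8b and Cox4i1 are lower in each CDTX group than in the saline group of the same surgery.

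Other complex IV members fell or moved in opposite ways. Cox4i1 and Cox5b, subunits common to most tissues, fell after CDTX, at -0.51 and -0.61 in SCI mice and -0.57 and -0.61 in sham mice. With the score the sham calls were lost, at -0.33 (adjusted p 0.544) for Cox4i1 and -0.02 (adjusted p 0.978) for Cox5b. Cox5a fell by 0.83 in SCI mice (adjusted p 0.000639) and was at -0.03 in sham mice (adjusted p 0.9), or -1.37 (adjusted p 0.0167) with the score. Cox7b had the largest fall of any member in SCI mice, with 6.64, 6.32 and 7.36 in SCI+CDTX against 9.26, 8.71, 8.25 and 8.03 in SCI+Saline, a change of -1.79 (SE 0.30, adjusted p 0.000133). In sham mice Cox7b was at 0.39 (adjusted p 0.263), and at -2.36 (adjusted p 0.0384) with the score. Cox4i2, the isoform known for its response to low oxygen, was detected on 6 of 16 arrays, and its rise of 0.46 in sham mice (adjusted p 0.0101) became -0.28 under median scaling over the kept probes and -0.21 with the score. Of the pair Cox6b1 and Cox6b2, the brighter Cox6b1 probe fell by 0.75 in sham mice (adjusted p 0.00111) and was at -0.34 in SCI mice (adjusted p 0.152). With the score its sham value was -0.07 (adjusted p 0.942). Cox6b2 was not called in any of the 5 comparisons. Ndufa4, which is counted with complex I here by its symbol, fell by 0.80 in SCI mice (adjusted p 0.00229) and by 0.48 in sham mice (adjusted p 0.0285). Its relative Ndufa4l2 was not analysed here.

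Cox6c moved in opposite directions in the SCI and sham mice. It was at 11.47, 11.16 and 11.62 in SCI+CDTX, at 13.24, 12.55, 12.07 and 12.03 in SCI+Saline, at 13.46, 13.22, 13.04 and 13.25 in Sham+CDTX and at 11.10, 11.46, 12.97 and 12.67 in Sham+Saline. The Sham+Saline arrays split into a low and a high pair. Its change after CDTX was -1.06 (SE 0.36, adjusted p 0.0224) in SCI mice and 1.19 (SE 0.33, adjusted p 0.00557) in sham mice. SCI+CDTX 2 was at 13.63, above the Sham+CDTX arrays. With the probe difference score the sham value was -2.26 (adjusted p 0.0332), the opposite direction.

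In complex V the median change was -0.56 in SCI mice and -0.39 in sham mice. Atp5b, the catalytic beta subunit (chromosome 10), was at 14.21, 13.89 and 13.97 in SCI+CDTX, at 14.33, 14.33, 14.38 and 14.23 in SCI+Saline, at 13.82, 13.96, 13.97 and 13.93 in Sham+CDTX and at 14.38, 14.29, 14.29 and 14.26 in Sham+Saline. CDTX arrays were below saline arrays in both surgeries, and the change was -0.29 (adjusted p 0.0713) in SCI mice and -0.39 (adjusted p 0.0109) in sham mice, where the call was lost with the score, at -0.23 (adjusted p 0.645). The alpha subunit gene Atp5a1 was at -0.29 (adjusted p 0.28) in SCI mice and 0.45 (adjusted p 0.0571) in sham mice. The gamma subunit gene Atp5c1 was at -0.49 (adjusted p 0.129) and 0.02 (adjusted p 0.948) in the same order. Atp5c1 was called in SCI mice with the score, at -0.69 (adjusted p 0.0428). In sham mice the score gave -1.38 (adjusted p 0.0831) for Atp5a1 and -1.5 (adjusted p 0.0595) for Atp5c1, neither called.

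The lowest called complex V gene after CDTX in SCI mice was Atp5h, a peripheral stalk subunit, with 11.06, 10.84 and 11.13 against 12.34, 12.24, 11.94 and 11.81, a change of -1.07 (SE 0.17, adjusted p 8.79e-05). In sham mice it was Atp5o, the stalk subunit that confers oligomycin sensitivity, at -1.32 (SE 0.28, adjusted p 0.000732). With the score Atp5o was at -0.18 in sham mice (adjusted p 0.893), and the call was lost. Its Sham+Saline arrays were spread from 7.73 to 9.35 and its Sham+CDTX arrays lay at 6.89 to 7.42. Among the genes that are not subunits, 3 fell in both surgeries: Ndufaf1 was at -0.57 and -1.01, Atp5s at -1.62 and -0.91 and Atp5sl at -0.68 and -0.99 in SCI and sham mice. The 2 Cox4nb probes rose in sham mice by 1.19 and 0.79 and were not called in SCI mice, at -0.16 and 0.23. With the score the sham values were 0.12 (adjusted p 0.886) and 1.10 (adjusted p 0.0504) for Cox4nb and -0.81 (adjusted p 0.0874) for Ndufaf1, none of them called. Cox7a2l was at 0.08 (adjusted p 0.732) in SCI mice and fell by 0.47 in sham mice (adjusted p 0.0139), which became 0.19 with the probe difference score.

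The fit with the probe difference score was used to see which of these calls depended on it. Of the 74 members called after CDTX in SCI mice, 70 were called in the same direction with the score (70 lower and 2 higher in all), and the median was -0.83. Of the 62 called in sham mice, 25 were called in the same direction, with 37 lower and 2 higher in all and a median of -1.06. The all-probe median was -0.04 in both comparisons with the score. The share of all probes called with the score is not given here for these comparisons, so the lost calls cannot be read as particular to the members. The part of the score in the sham values was not tested beyond this fit.

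**Figure D4:**
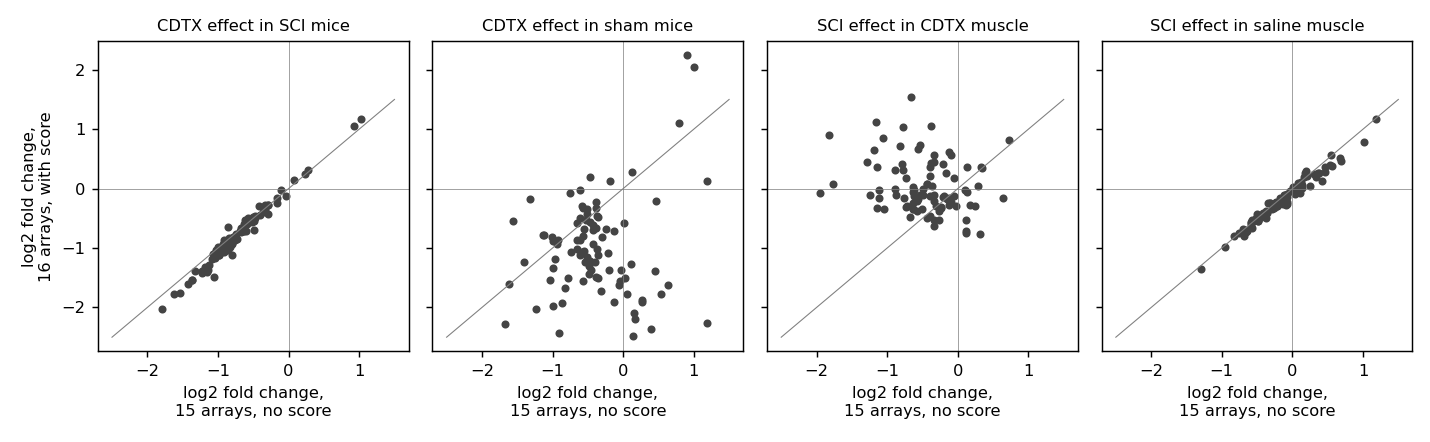
Log2 fold change of the 91 member probes in the fit without the probe difference score (horizontal, 15 arrays) and with it (vertical, 16 arrays), for 4 comparisons; the diagonal marks equal values. The values lie along the diagonal for CDTX in SCI mice and SCI in saline muscle, where 70 of 74 and 25 of 28 calls were kept, and scatter for the comparisons that use Sham+CDTX arrays, where 25 of 62 and 0 of 44 were kept.

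The effect of SCI was then measured in muscle with the same injection. In saline muscle it was small: 23 member probes were lower and 5 higher in SCI+Saline than in Sham+Saline, where 14.6% of all probes were lower and 14.8% higher, and the member median was -0.13. Its direction depended on the scaling, since median scaling over all probes gave a member median of 0.20, with 3 lower and 21 higher, beside an all-probe median of 0.17 and a higher share of 86.4% against 50.3%. With each slide normalized separately the member median was 0.05, with 7 lower and 12 higher, beside an all-probe median of 0.09 and a higher share of 68.3%. Median scaling over the kept probes gave -0.13, with 14 lower and 10 higher, beside an all-probe median of -0.16. The 5 higher calls became 8 without SCI+Saline 4 and 3 without SCI+Saline 2.

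By complex, 12 of 42 complex I probes, 3 of 5 complex II probes and 3 of 6 complex III probes were lower in saline muscle after SCI, against 1 of 15 in complex IV and 1 of 15 in complex V. Atp5f1, a peripheral stalk subunit, was at 11.07, 11.28, 11.15 and 11.29 in SCI+Saline and at 12.21, 12.18, 11.82 and 11.87 in Sham+Saline, a change of -0.83 (SE 0.14, adjusted p 0.000214). Cyc1 changed by -0.76 (adjusted p 0.00183), Ndufa9 by -0.67 (adjusted p 0.00336) and Cox7a1 by -0.65 (adjusted p 0.0426). The highest were Atp5e, the epsilon subunit, at 1.19 (adjusted p 0.00798) and Cox7b at 1.02 (adjusted p 0.0102), the latter 0.79 (adjusted p 0.0744) with the score. The groups overlapped for Atp5e, at 8.82 to 10.35 against 7.71 to 8.82.

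In CDTX muscle, 43 member probes were lower and 1 higher in SCI+CDTX than in Sham+CDTX, where 14.9% of all probes were lower and 14.9% higher, and the member median was -0.40 against 0.01 over all probes. This result depended on the probe difference score and on SCI+CDTX 2. With SCI+CDTX 2 included, 24 were lower and 0 higher (limma, all 16 arrays). The share of all probes called in that fit is not given here, so the lost calls cannot be read as particular to the members. With the score, 0 were lower and 0 higher, the median was -0.11, and 0.515% of all probes were lower and 1.18% higher. With each slide normalized separately 25 were lower and 4 higher, and the median was -0.18 beside an all-probe median of 0.10, with 66.6% of all calls higher against 49.9%. The single higher call was Ndufv1, at 0.64 (adjusted p 0.00332), which was -0.16 with the score. A second probe passed without Sham+CDTX 1.

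Among the brightest probes, those furthest down in CDTX muscle included members on which SCI+CDTX 2 stood apart from its group. Cox6c was at -1.83 (adjusted p 0.000741), with SCI+CDTX 2 at 13.63 where the other SCI+CDTX arrays were at 11.16 to 11.62. Ndufb9 was at -1.18 (adjusted p 0.000583) and Ndufb5 at -1.14 (adjusted p 0.000366), and SCI+CDTX 2 was at 11.04 on the Ndufb5 probe, in the Sham+CDTX range. With the score these became 0.91, 0.65 and 0.37 and were not called (adjusted p 0.458, 0.56 and 0.729). Sdhb, at -1.11 (adjusted p 6.99e-05), was -0.15 with the score.

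The interaction, the CDTX effect in SCI mice minus that in sham mice, was called for 17 member probes below 0 and 3 above, where 11.6% of all probes were below and 12% above, and the member median was -0.27 against -0.01. With SCI+CDTX 2 included these counts were 1 and 2, in a fit whose share of all probes called is not given here. With the score they were 0 and 0, beside 0.234% and 0.0602% of all probes, and the median was 0.24. Without SCI+CDTX 3 the count below 0 was 10, and without SCI+Saline 1 it was 11. By the brightest probe of each gene, the lowest were Cox6c at -2.25 (adjusted p 0.00245), Cox7b at -2.18 (adjusted p 0.000901) and Ndufb9 at -1.63 (adjusted p 0.000761), and the highest was Ndufv1 at 1.14 (adjusted p 0.000546).

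Several genes had more than 1 kept probe, which gives a view of the same disagreement within members. Across 13 such genes, the range between probes of a gene had a median of 0.26 log2 for CDTX in SCI mice, 0.48 for CDTX in sham mice, 0.53 for SCI in CDTX muscle, 0.14 for SCI in saline muscle and 0.56 for the interaction. Ndufs4, an accessory subunit of the NADH-oxidizing arm, had 4 probes that shared under 8 bases in a row. All 4 fell after CDTX in SCI mice, to between -1.23 and -0.97, and they lay between -0.47 and 0.26 in sham mice. With the score the 3 Ndufs4 probes that were not called in sham mice were called lower there, at -1.87 to -1.55. For Ndufb6 the probes were at -0.30 (adjusted p 0.111) and 0.64 (adjusted p 0.0162; -1.62 with the score) in sham mice, and at -0.72 and -1.95 for SCI in CDTX muscle. Cycs was the gene whose probes were called in opposite directions, with interactions of -1.32 (adjusted p 0.0431) and 0.77 (adjusted p 0.0118). With the score both interactions were positive, at 0.8 (adjusted p 0.693) and 1.25 (adjusted p 0.095), and neither was called. The Ndufb11 pair and a pair of the Sdhb probes share 49 bases and are nearly the same measurement.

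In the authors' deposited table, at the difference p-value under 0.05 that the table gives, 59 members were lower and 3 higher in SCI+CDTX than in SCI+Saline, where 6.47% of the same probes were lower and 26.2% higher. Whether those p-values are adjusted for multiple tests is not given in the sources used here. Against Sham+CDTX, the authors' deposited table had 41 members lower and 2 higher, where 13.8% were lower and 14.6% higher. Fold changes from the group means of the authors' deposited table gave member medians of -0.80 and -0.42 in these comparisons, beside all-probe medians of 0.21 and 0.03.

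Related mitochondrial lists were counted with the brightest probe of each gene. Over all tested probes, 22.5% were lower and 20.4% higher after CDTX in SCI mice, and 25.8% and 23.1% in sham mice. Shares over all genes with 1 probe each are not given here. Of 16 genes of the tricarboxylic acid cycle and pyruvate dehydrogenase, 12 were lower and 1 higher after CDTX in SCI mice (median -0.74), and 8 lower and 1 higher in sham mice (median -0.49). Of 18 assembly and cofactor genes, 11 were lower in SCI mice (median -0.46) and 14 in sham mice (median -0.64), with 0 higher in either (limma). Of 12 genes of ATP export and the mitochondrial membrane, 5 were lower and 1 higher in SCI mice, and 6 lower and 2 higher in sham mice.

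Of 12 regulators of mitochondrial biogenesis, 4 were lower and 1 higher after CDTX in SCI mice, and 8 lower and 0 higher in sham mice (limma). After SCI in saline muscle 7 were lower and 0 higher (limma), where 14.6% of all probes were lower and 14.8% higher. Perm1, a muscle partner of the PGC-1 coactivators, averaged 11.25 in Sham+Saline and 9.60 in Sham+CDTX muscle, and 7.95 in SCI+Saline and 7.29 in SCI+CDTX muscle. Its change after SCI in saline muscle was -3.29 (SE 0.24, adjusted p 1.68e-08), against the member median of -0.13 in that comparison. The coactivator gene Ppargc1a changed there by -0.98 (adjusted p 0.0021) and Ppargc1b by -1.36 (adjusted p 9.53e-05). Tfam, the factor that packages and transcribes mitochondrial DNA, fell after CDTX in SCI mice by 1.00 (adjusted p 0.000395) and was at 0.29 in sham mice (adjusted p 0.19). Values with the probe difference score are not given for these mitochondrial lists or for the cell markers below. Their values in comparisons that use Sham+CDTX arrays may depend on it, as those of the members did.

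Markers of other cells and of fibre types were counted in the same way. Over all probes, 22.5% were lower and 20.4% higher after CDTX in SCI mice, and 25.8% and 23.1% in sham mice. After SCI the shares were 14.6% and 14.8% in saline muscle, and 14.9% and 14.9% in CDTX muscle. Some counts of these short lists lie near the shares, such as fast and general fibre genes lower after CDTX in SCI mice or after SCI in saline muscle. Of 10 kept macrophage and monocyte markers, 10 were higher after CDTX in SCI mice and 9 were in sham mice. Their summed normalized intensity was 14163 to 20956 in SCI+CDTX and 17558 to 20994 in Sham+CDTX, against 1115 to 4572 in SCI+Saline and 1390 to 2476 in Sham+Saline. Of 7 slow fibre genes, 6 were lower after CDTX in either surgery. Their sum was 3862 to 4635 on SCI+CDTX, 8652 to 20448 on SCI+Saline, 6029 to 8644 on Sham+CDTX and 14997 to 29353 on Sham+Saline arrays. Of 14 fast and general fibre genes, 3 were lower after CDTX in SCI mice, and 2 were lower and 2 higher in sham mice. Their sums were 176109 to 190865, 175132 to 198731, 174499 to 195320 and 200549 to 213958 in the same order of groups, and their evenness is partly set by the normalization. In this list Myh2 and Mb were lower in both surgeries, at -0.65 and -1.28 in SCI mice and -0.94 and -0.75 in sham mice. The 2 higher in sham mice were Myh1 at 0.70 and Myh4 at 0.35. After SCI, 4 of 7 slow fibre genes were lower in saline muscle (median -0.68) and 4 of 7 in CDTX muscle (median -0.72). Myl2, the slow myosin light chain gene, changed by -1.40 and Myh7, the slow myosin heavy chain gene, by -1.42 in saline muscle (adjusted p 0.00246 and 0.000188). Of the macrophage and monocyte markers, 2 of 10 were higher after SCI in saline muscle, among them Cd68 at 1.82 (adjusted p 0.000319), and 3 were higher and 1 lower in CDTX muscle. Of 14 fast and general fibre genes, 2 were lower and 0 higher after SCI in saline muscle (limma), and 4 were lower and 0 higher in CDTX muscle. Myh2 was among them in both, at -1.83 (adjusted p 1.41e-06) and -1.54 (adjusted p 2.64e-05). The part of these markers in the changes of the respiratory chain genes was not tested.

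Fibroblast and fibroadipogenic markers were higher after CDTX for 2 of 4 genes in SCI mice and 4 of 4 in sham mice, with sums of 7542 to 8869 on SCI+CDTX, 6139 to 9884 on SCI+Saline, 13471 to 16425 on Sham+CDTX and 5025 to 11548 on Sham+Saline arrays. Of 5 kept neutrophil markers, 2 were higher and 0 lower after CDTX in either surgery (limma, medians 1.31 and 1.03), namely Csf3r and Retnlg. The sums of all 5 were 2954 to 4977, 2007 to 12037, 607 to 905 and 111 to 9705 in that order, so 1 or more saline arrays in each surgery were above every CDTX array of that surgery. After SCI in saline muscle 1 of the 5 was higher, S100a8 at 4.74 (adjusted p 0.00475). Fat markers were lower for 4 of 4 genes after CDTX in sham mice and for 0 of 4 in SCI mice. Endothelial markers gave 1 of 3 higher in SCI mice and 1 of 3 lower in sham mice after CDTX, and 2 of 3 were lower after SCI in saline muscle. Of 3 lymphocyte markers on the array, 1 was kept.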

How the data were processed

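Total RNA of mouse hamstring muscle was measured on Illumina BeadChips, 16 arrays on 2 slides; GenomeStudio 2011.1 is named in the submitters' processing notes. The deposited table gives the bead intensity of every array, neither normalized nor background-subtracted per the file headers, with a detection p-value per probe, and the number of beads (33.3 to 38.9 per probe on average). The number of beads and of arrays limits the precision. A second deposited table holds the authors' group mean intensity after average normalization and background subtraction, and a difference p-value of each group against SCI+CDTX. The number of per-sample columns not used was 0.

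Intensities of 15 arrays were background-corrected from the detection p-values, quantile normalized and log2-transformed at an offset of 16 (neqc, limma 3.58.1, R 4.3.3, data.table package 1.17.8), so fold changes of dim probes are understated. Changes of probes at the top of the normalized scale, such as those of Atp5b and Cox6a2, may be understated too. The filter (detection p under 0.05, 3 or more arrays) left 14763 probes, which were fitted with 4 group means (lmFit, contrasts.fit, eBayes) with calls at an adjusted p under 0.05 (Benjamini-Hochberg). All adjusted p-values are limma's unless another test is named, and the fit was tested on simulated data. Of 98 member probes, 94 matched the RefSeq gene table, and the symbols are those of the array. Figures were drawn with matplotlib.

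Named are, per comparison and complex, the highest and lowest called gene by its brightest kept probe; the isoform pairs Cox4i1/Cox4i2, Cox6a1/Cox6a2, Cox6b1/Cox6b2, Cox7a1/Cox7a2, Cox8a/Cox8b and Ndufa4/Ndufa4l2; core subunits; genes that are not subunits; and genes whose probes were called in opposite directions. Ndufs4, Ndufb6 and Cox6c were singled out after their values were seen. A core subunit that the rule names is not reported here. Members, lists, tests and alternatives were chosen with earlier results of these data known. Alternatives were all 16 arrays with and without the probe difference score, median scaling, each slide normalized separately, no background correction, other detection filters, a trended and robust eBayes, the replicate number as a block, a single probe per gene, the authors' table and each array left out.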

Additional observations from a re-analysis of the deposited data

Results flagged for a closer look

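Some arrays lay far from the other 3 of their group. Among 174 groups of 4 arrays tested, 8 held such an array, and chance alone flags about 1 group in 20. The complex II median was -0.87 on Sham+CDTX 3, where the nearest array was at -0.41. Ndufb5 was at 10.33 and Cox7b at 7.17 on Sham+Saline 1, with the nearest arrays at 10.79 and 7.64. Cox8b was at 13.57 on Sham+Saline 2, with the nearest at 13.39. The other flagged values were near the detection limit: Cox6b2 at 4.27 on SCI+Saline 1, Uqcrfs1 at 5.10 on SCI+Saline 3 and 4.70 on Sham+Saline 4, and Atp5k at 5.97 on Sham+CDTX 1.

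For 20 member probes the CDTX effect differed between SCI and sham mice by the interaction term (limma, adjusted p under 0.05), and 0 of the 20 kept the call with the probe difference score. Below 0 were, in complex I, Ndufa1 at -0.97, Ndufa12 at -0.63, a Ndufa5 probe at -1.05, Ndufb4 at -1.35, Ndufb5 at -1.49, a Ndufb6 probe at -1.86, Ndufb9 at -1.63, a Ndufc1 probe at -1.69 and 3 Ndufs4 probes at -1.17, -1.06 and -1.40. In complexes IV and V they were Cox5a at -0.80, Cox6c at -2.25, Cox7b at -2.18 and Atp5k at -1.33. A Cox4nb probe was at -1.35 and the first Cycs probe at -1.32. Above 0 were Ndufv1 at 1.14, Ndufb10 at 0.76 and the second Cycs probe at 0.77.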

How the results depend on the processing

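After CDTX in SCI mice the member median stayed below 0 under each alternative run, from -1.29 under median scaling over the kept probes (added after seeing the data, with 0 probes higher) to -0.63 with all 16 arrays, and 1 gene was higher with 1 probe per gene. In sham mice median scaling gave -0.25 (32 lower, 14 higher), scaling over kept probes -1.03, and the score -1.06 with 2 higher; 4 genes were higher with 1 probe per gene. For SCI in CDTX muscle, all 16 arrays gave 24 lower and 0 higher, separate slides 25 lower, 4 higher and -0.18, the score 0, 0 and -0.11, and 2 were higher under either median scaling. For SCI in saline muscle, median scaling gave 0.20 (3 lower, 21 higher), scaling over kept probes 14 lower and 10 higher, separate slides 0.05 (7 lower, 12 higher), all 16 arrays 2 higher, the score 2 higher and 1 probe per gene 3 higher. For the interaction, all 16 arrays gave 1 below 0, median scaling 44 below and -0.68, no background correction 8 above, and the score 0, 0 and 0.24. These counts are of members, and the share of all probes called is given above for only some of the alternatives.

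Leaving out each array moved the interaction count below 0 from 10 to 23, the higher count for SCI in CDTX muscle from 1 to 2 and that for SCI in saline muscle from 3 to 8. The Cox6a2 minus Cox6a1 changes ranged from -2.22 to -1.57 (CDTX in SCI mice), -1.45 to -1.02 (CDTX in sham mice) and -1.07 to -0.42 (SCI in CDTX muscle), and the Cox7a1 minus Cox7a2 changes from -0.75 to -0.55 (CDTX in sham mice) and -0.82 to -0.59 (SCI in saline muscle). These 5 calls were lost when any of 14 arrays was left out (exact permutation test over 8 tests, adjusted p 0.0571 to 0.16) and kept without Sham+Saline 4 (adjusted p 0.0457). For the SCI+CDTX, SCI+Saline and Sham+CDTX arrays this loss follows from the smaller groups, which raise the smallest p that the test can give. Without Sham+Saline 1, 2 or 3 that smallest p does not rise, and the reason for the loss was not tested. With all 16 arrays the pair changes were -1.55, -1.26, -0.41, -0.65 and -0.70, and with median scaling -1.93, -1.75, -0.88, -1.24 and -0.78; without background correction the Cox7a1 pair passed for SCI in CDTX muscle, at -0.64.

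With the score, estimates crossed or reached 0 for SCI in CDTX muscle in Ndufv1 (-0.16), Ndufb5 (0.37), Cycs (0.85), Cox7b (1.12), Ndufa12 (0.18), Cox6c (0.91), Ndufb9 (0.65), Cox4i2 (0.08), Atp5c1 (0.31), Cox5a (0.31), Cox6a2 (0.08), Cox7a2 (0.02), Atp5a1 (0.72), Cox4nb (0) and Atp5s (0.66). None of these was called with the score (limma, adjusted p 0.327 to 0.998), so the calls were lost rather than reversed. Estimates changed sign for the interaction in Ndufb5 (0.18), Cycs (0.80), Cox7b (0.33), Ndufa12 (0.39), Cox6c (0.78), Ndufb9 (0.38), Cox5a (0.39) and Atp5k (0.65), none called with the score (limma, adjusted p 0.649 to 0.921). For CDTX in sham mice they did so in Cox6c (-2.26, adjusted p 0.0332), Cox4i2 (-0.21, adjusted p 0.728) and Cox7a2l (0.19, adjusted p 0.77). Under median scaling Ndufa6 (0.03) and Ndufv2 (0.02) reversed for SCI in saline muscle, and under scaling over kept probes Cox4i2 (-0.28) for CDTX in sham mice. The causes of these changes were not tested.

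Arrays with the same replicate number did not deviate together (21 correlations of -0.27 to 0.38, median -0.02). With the replicate block, 67 members were lower after CDTX in SCI mice, 55 in sham mice, 40 lower and 2 higher for SCI in CDTX muscle, 23 lower for SCI in saline muscle and 15 below 0 for the interaction. Probes near the detection limit, such as those of Uqcrfs1, Cox4i2, Cox6b2 and Atp5k, had too little signal to show small changes.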
